A study of Arabidopsis thaliana with 12 samples.

Results

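The 37 probe sets described here measured cell wall genes of 2 families on the ATH1 array, which reports each Arabidopsis transcript through a set of short probes. A probe set was taken when the platform annotation gave it 1 gene whose symbol, without an AT prefix, was TBL and a number, TBR, or began with GH9. Of the 22746 probe sets tested, 13513 had 1 gene in that annotation, and 37 of them met the rule. They comprised 22 trichome birefringence-like (TBL) genes and 15 glycosyl hydrolase family 9 (GH9) genes, of which 2 belonged to class A, 10 to class B and 3 to class C. RefSeq lists 45 TBL genes and 24 GH9 genes in the species. Genes of the families without a probe set under the rule, TBR, ESK1 and GH9A1 among them, were not analysed here.

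Many TBL proteins, though not necessarily all, sit in the Golgi and transfer acetyl groups to polysaccharides before these are delivered to the wall. TBL23, TBL25 and TBL26 act on mannan, whereas TBL28, TBL30, TBL32, TBL34 and TBL35 act on xylan, and acetylation affects how these polymers pack, dissolve and bind to cellulose. GH9 enzymes are endoglucanases that cut glucan chains with 1,4 linkages. Class A enzymes are anchored in membranes, as the cellulose synthesis enzyme KORRIGAN is, class B enzymes are secreted, and class C enzymes are secreted and carry an additional domain that binds carbohydrate.

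The study asked how gene expression changes when the cuticle is defective. Young rosette leaves between 2 mm and 1 cm long came from bdg, fdh and lcr mutants and from wild-type (WT) Columbia-0 plants after 5.5 weeks of growth with 8 h of light and 16 h of dark. The bdg-2 allele has lost 7 bp of exon 1 of BDG, fdh-3940 has gained 2 bp in exon 1 of FDH, and lcr-3P77 carries 1169 bp inserted in the 5′ UTR of LCR. BDG is an epidermal protein of the α/β-hydrolase fold, FDH an enzyme of fatty acid elongation and LCR a cytochrome P450. Each mutant was represented by 1 allele, and each of the 3 biological replicates per genotype pooled 15 plants. In such whole-leaf samples, fewer cells of a type and less RNA per cell cannot be told apart. The comparisons of all mutants with WT share the same 3 WT arrays.

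The deposited values were log2 expression values. Medians of the 12 arrays ranged between 4.56 and 4.70, and arrays of a genotype correlated at 0.966 to 0.996 over all probe sets. The files used here give no detection call, and values under the lowest of these medians, 4.56, were taken as not shown to exceed background. No probe set was named for BDG, FDH or LCR, so the labels could not be checked on the mutated genes. The leaf marker RCA, the activase of Rubisco, averaged 14.1 to 14.3 in the 4 genotypes, and the root hair expansins EXP7 and EXPA18 averaged 1.91 and 1.92 in each of them. Of 2 trichome regulators, GIS was lower in fdh (4.84 ± 0.50 in fdh, 7.24 ± 0.80 in WT, SD, n = 3 each, log2 difference of -2.41, limma adjusted p = 0.0399), and TRY averaged 6.85 in fdh and 8.64 in WT (adjusted p = 0.129). The differences of GIS and TRY were -0.90 and -0.68 in bdg and -1.23 and -1.29 in lcr. Of 3 epidermis markers, none passed limma in a mutant. SPCH differed by -0.63 in fdh (adjusted p = 0.0546) and FAMA by 0.13, and MUTE was under 4.56 on every array. Whether trichome or epidermis content had a part in the values below was not tested.

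Only some of the family members were measured clearly in these leaves. Those at or above 4.56 on every array were 12 TBL genes (TBL16, TBL18, TBL23, TBL25, TBL26, TBL28, TBL32, TBL37, TBL38, TBL39, TBL41 and TBL45) and 3 GH9 genes (GH9B7, GH9B8 and GH9C2). A further 9 TBL and 12 GH9 probe sets were under it on every array, with values between 1.92 and 4.07, and 12 of these 21 varied by less than 0.2 over all 12 arrays. TBL35 was the only member that crossed the line, on 2 arrays. Of the GH9 genes with a probe set under the rule, the 2 of class A, 2 of the 3 of class C and 8 of the 10 of class B therefore lay in the range not shown to exceed background. Among them were GH9A3, a membrane-anchored relative of KORRIGAN, with array values between 2.34 and 2.44, and GH9C1, known from root hairs, with values between 2.24 and 2.30.

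**Figure D1:**
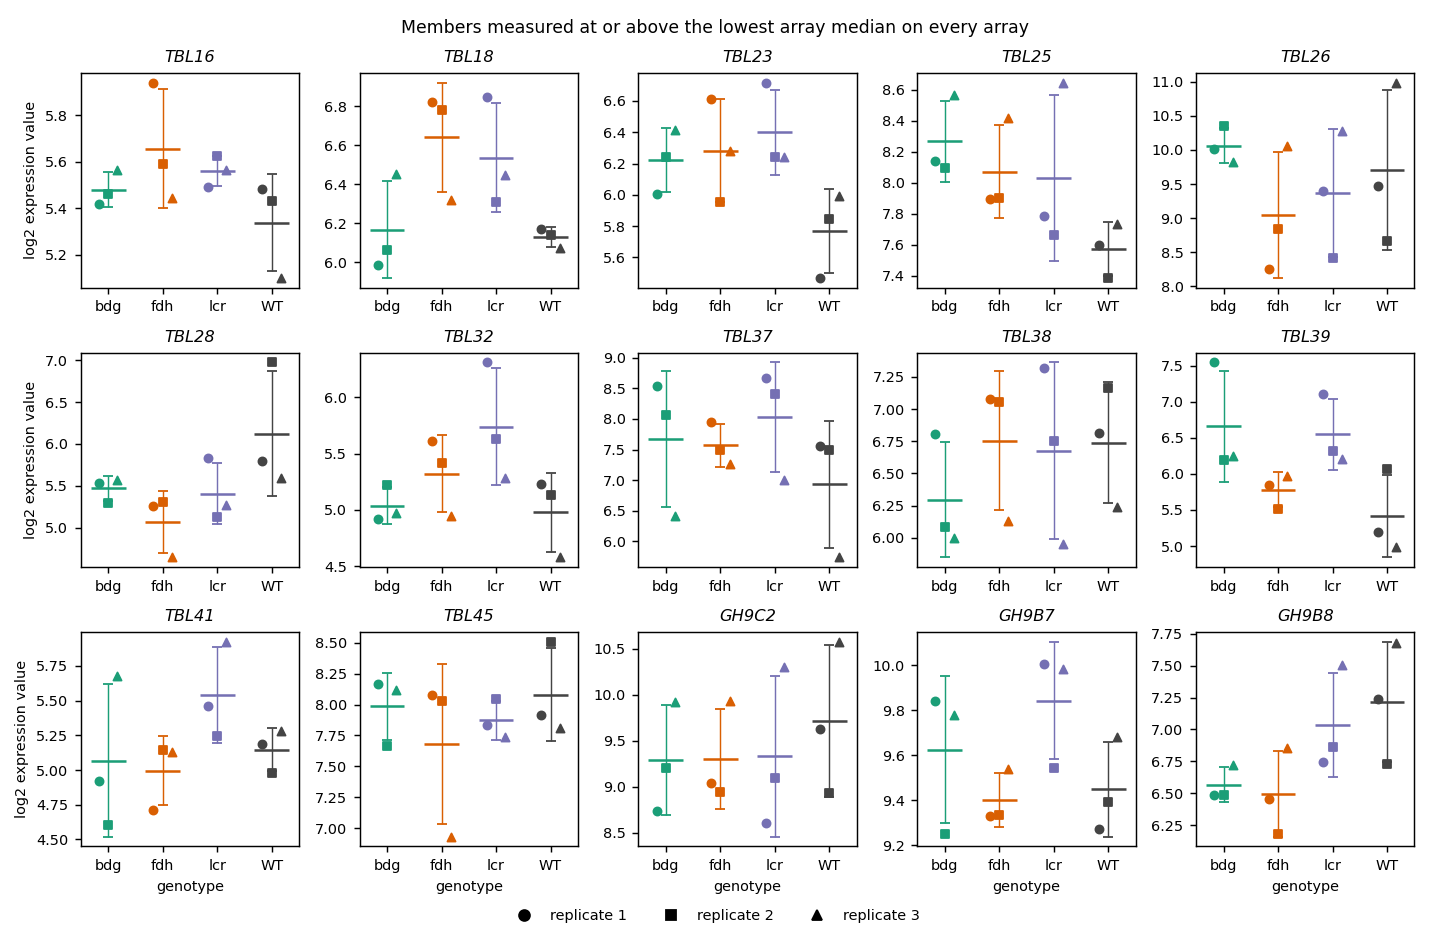
Log2 expression values of the 15 members at or above the lowest array median on every array, by genotype (bdg, fdh, lcr, WT). Points are single arrays with a marker for each replicate number, horizontal lines are means and bars are SD (n = 3), and each panel has its own vertical scale. All 3 arrays of bdg and lcr lie above all WT arrays for TBL39, whereas the arrays of the 4 genotypes overlap for TBL26, GH9C2 and TBL38.

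Few members passed a test against WT. With limma, fitted over all 22746 probe sets with Benjamini-Hochberg adjustment, no member passed an adjusted p of 0.05 in bdg, fdh or lcr, where 0.11%, 2.17% and 0.4% of all probe sets passed. At these shares, a count of 0 among 37 probe sets does not set the families apart. At an unadjusted p under 0.05 there were 5 members in bdg (13.5%, against 4.22% of all probe sets), 7 in fdh (18.9%, against 14.9%) and 7 in lcr (18.9%, against 7.91%). TBL36 and TBL19, both under 4.56 on every array, were the members that appeared there in all 3 mutants. Rank Product, a rank-based test that gives the expected share of false positives (pfp), called no member in bdg, fdh or lcr at a pfp under 0.05, where it called 0.55%, 1.89% and 1.13% of all probe sets.

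Taking the 3 mutants together, each method called 1 member, and not the same one. The mean of the mutants was lower than WT for TBL36 alone in limma, where 0.822% of all probe sets differed and 0.18% were lower. Rank Product, which pooled the ranks of the 9 mutant arrays against the 3 WT arrays, called TBL39 alone, as higher. It called 3.39% of all probe sets, and 3.26% as higher, so 1 of 37 members does not set the families apart. At an unadjusted limma p under 0.05, there were 7 members (18.9%, against 9.36% of all probe sets) for the mean of the mutants. A test for any difference among the 4 genotypes called no member (0.972% of all probe sets) and gave 4 members (10.8%, against 11.4%) at an unadjusted p under 0.05, namely TBL36, TBL39, TBL18 and GH9B5. Over all 22 TBL probe sets the median log2 difference was -0.005 in bdg, -0.003 in fdh and 0.003 in lcr. Over the 15 GH9 probe sets it was 0.004 in bdg, -0.008 in fdh and -0.004 in lcr. The corresponding medians over all probe sets were -0.007, -0.005 and 0.004 in the same mutants. Because 21 of the 37 members lay under 4.56 on every array, these medians mostly describe values not shown to exceed background.

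TBL39 was the member with the highest log2 difference in both bdg and lcr. Its arrays read 7.54, 6.19 and 6.24 in bdg, 5.85, 5.51 and 5.98 in fdh and 7.11, 6.32 and 6.21 in lcr, against 5.19, 6.06 and 4.99 in WT. All arrays of bdg and lcr lay above the 3 WT arrays, while those of fdh lay within their range. The log2 difference from WT was 1.25 in bdg (95% interval 0.28 to 2.21), 0.36 in fdh (-0.60 to 1.33) and 1.13 in lcr (0.17 to 2.1), with limma adjusted p of 0.910, 0.912 and 0.506. The bdg difference rested partly on bdg replicate 1, without which it was 0.80. Rank Product over the 9 mutant arrays placed TBL39 among the genes that rose, with a pfp of 0.0161, and its pfp in bdg alone was 0.140. This call was lost without WT replicate 1 (pfp 0.0824), WT replicate 3 (0.127) or bdg replicate 1 (0.0607), and when low probe sets were left out (0.140).

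TBL36 was the member called by limma for the mean of the 3 mutants. Its arrays read 2.42, 2.42 and 2.35 in bdg, 2.35, 2.39 and 2.38 in fdh and 2.36, 2.40 and 2.39 in lcr, against 2.92, 3.72 and 2.94 in WT. All 9 mutant arrays lay together and below the 3 WT arrays, yet even the WT arrays were under the lowest array median. The mean of the mutants was 0.81 lower on the log2 scale (log2 difference of -0.81 ± 0.15, SE, 95% interval -1.14 to -0.47, adjusted p = 0.0483), and the differences were -0.80 in bdg, -0.82 in fdh and -0.81 in lcr (adjusted p of 0.327, 0.0568 and 0.142). The call rested close to the threshold: leaving out any single array except WT replicate 2 moved its adjusted p to between 0.0517 and 0.109. Without WT replicate 2, whose value was the highest, the mean difference was -0.54 (adjusted p = 0.00106), and the adjusted p was 0.00601 in bdg, 0.00148 in fdh and 0.00327 in lcr.

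TBL19, named after its values were seen, was the only other member whose 9 mutant arrays all lay below the WT arrays, an arrangement found downwards in 0.633% of all probe sets. The mutant arrays read between 1.98 and 2.02, and the WT arrays 4.07, 2.11 and 2.71. The mean log2 difference was -0.96 (95% interval -1.68 to -0.24, adjusted p = 0.329), set mostly by WT replicate 1. No member had all 9 mutant arrays above the WT arrays, which 1.45% of all probe sets had.

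**Figure D2:**
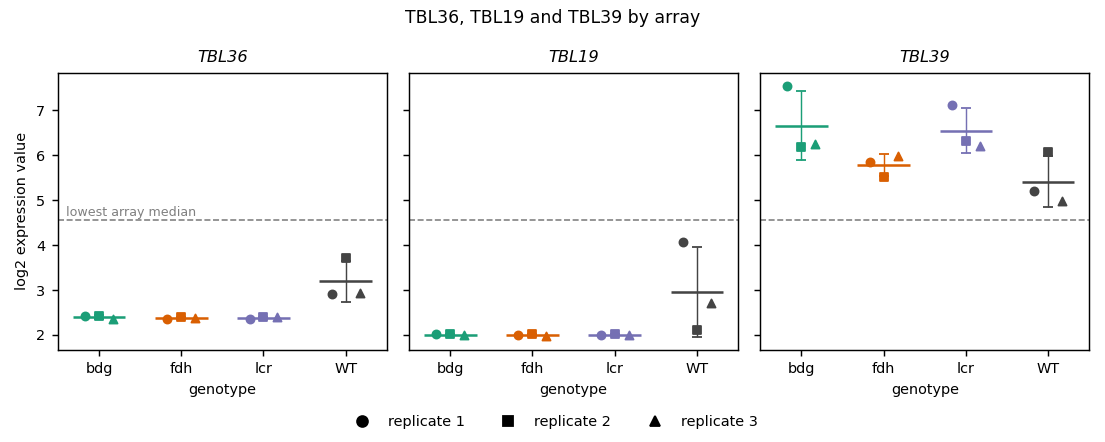
Log2 expression values of TBL36, TBL19 and TBL39 by genotype (bdg, fdh, lcr, WT). Points are arrays, lines means and bars SD (n = 3), and the dashed line is the lowest array median, 4.56. The WT arrays of TBL36 and TBL19 stand above the 9 mutant arrays but under the dashed line, and all arrays of TBL39 stand above it.

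Among the enzymes of mannan acetylation, TBL23 and TBL25 averaged more in every mutant than in WT, without passing the test, and TBL26 varied widely between replicates. TBL25 arrays read 8.14, 8.10 and 8.57 in bdg, 7.89, 7.90 and 8.42 in fdh and 7.78, 7.66 and 8.64 in lcr, against 7.60, 7.39 and 7.73 in WT. Both bdg and fdh lay above WT on all arrays, and lcr overlapped it. The log2 difference was 0.70 in bdg (0.09 to 1.3), 0.50 in fdh (-0.11 to 1.1) and 0.46 in lcr (-0.15 to 1.06), and the mean of the mutants differed by 0.55 (adjusted p = 0.451). TBL23 read 6.01, 6.24 and 6.42 in bdg, 6.61, 5.95 and 6.28 in fdh and 6.72, 6.24 and 6.24 in lcr, against 5.47, 5.84 and 5.99 in WT. Here bdg and lcr lay above WT on all arrays, with differences of 0.45, 0.51 and 0.63 in bdg, fdh and lcr, and a mean of 0.53 (adjusted p = 0.319). TBL26 read 10.02, 10.34 and 9.83 in bdg, 8.25, 8.84 and 10.06 in fdh and 9.40, 8.41 and 10.28 in lcr, against 9.48, 8.66 and 10.98 in WT. All genotypes overlapped, and bdg alone varied little. The gene averaged 10.06 ± 0.26 in bdg, 9.05 ± 0.93 in fdh, 9.37 ± 0.93 in lcr and 9.71 ± 1.18 in WT (SD, n = 3 each), and the intervals of its difference were -1.20 to 1.92 in bdg, -2.22 to 0.90 in fdh and -1.90 to 1.22 in lcr. Those in bdg and lcr held both a doubling and a halving, and that in fdh held a halving.

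Of the xylan acetylation genes, TBL28 and TBL32 were measured on every array and neither passed the test. TBL28 read 5.54, 5.30 and 5.57 in bdg, 5.26, 5.30 and 4.64 in fdh and 5.83, 5.13 and 5.27 in lcr, against 5.80, 6.98 and 5.60 in WT. All arrays of bdg and fdh lay below WT, and 1 lcr array lay within its range. TBL28 had the lowest difference of the 15 clearly measured members in each mutant, -0.66 in bdg (-1.46 to 0.15), -1.05 in fdh (-1.86 to -0.25) and -0.72 in lcr (-1.52 to 0.09), but none passed the adjusted test (0.194 in fdh). Without WT replicate 2, the array of 6.98, the difference in fdh was -0.63 (adjusted p = 0.360).

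TBL32 read 4.92, 5.23 and 4.97 in bdg, 5.61, 5.41 and 4.94 in fdh and 6.31, 5.63 and 5.28 in lcr, against 5.23, 5.13 and 4.58 in WT. The annotation gives its probe set 1 gene, but the probe set is of the s_at kind, as are those that list several GH9 genes. Its signal may therefore not come from TBL32 alone. Only lcr lay above WT on every array, and its replicate 3 (5.28) almost reached the highest WT array (5.23). The log2 difference was 0.76 in lcr (0.12 to 1.41, adjusted p = 0.502), 0.06 in bdg and 0.34 in fdh. TBL30, the gene next to TBL28 on the chromosome, was between 2.75 and 2.90 on all arrays, and TBL34 between 3.04 and 3.87, with the highest value in WT replicate 1. TBL35 averaged 3.98 ± 0.10 in bdg, 4.28 ± 0.39 in fdh, 4.28 ± 0.56 in lcr and 4.06 ± 0.25 in WT. For these 3 genes the values give no measure of expression in the leaf, except on the 2 arrays of TBL35 above 4.56, fdh replicate 1 (4.69) and lcr replicate 1 (4.93).

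TBL37 and TBL38 differed more between replicates than between genotypes. TBL37 read 8.54, 8.06 and 6.42 in bdg, 7.95, 7.49 and 7.26 in fdh and 8.67, 8.40 and 7.01 in lcr, against 7.56, 7.50 and 5.74 in WT. In each genotype replicate 3 was the lowest, and the log2 differences of 0.74 in bdg, 0.64 in fdh and 1.1 in lcr had intervals reaching from -0.93 to 2.67. The pfp of TBL37 over the 9 mutant arrays was 0.0570, just outside the threshold, and it was under 0.05 without WT replicate 1 (0.0204), WT replicate 2 (0.0162), bdg replicate 3 (0.0389) or lcr replicate 3 (0.0479). It rose to 0.861 without WT replicate 3, the array of 5.74, and to 0.248 when low probe sets were left out. Without any other single array it was between 0.0512 and 0.134. TBL38 read 6.81, 6.08 and 5.99 in bdg, 7.08, 7.06 and 6.13 in fdh and 7.32, 6.75 and 5.95 in lcr, against 6.82, 7.16 and 6.24 in WT. Replicate 3 was again the lowest in every genotype. The gene averaged 6.30 ± 0.45 in bdg, 6.76 ± 0.54 in fdh, 6.68 ± 0.69 in lcr and 6.74 ± 0.47 in WT, with differences of -0.44, 0.02 and -0.06 in the mutants.

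The remaining clearly measured TBL genes, TBL16, TBL18, TBL41 and TBL45, had log2 differences between -0.40 and 0.51. TBL18 read 5.99, 6.06 and 6.45 in bdg, 6.82, 6.78 and 6.32 in fdh and 6.85, 6.31 and 6.45 in lcr, against 6.17, 6.14 and 6.08 in WT. All arrays of fdh and lcr lay above WT, and those of bdg overlapped it. Its differences of 0.51 in fdh (0.10 to 0.92, adjusted p = 0.217) and 0.41 in lcr (-0.01 to 0.82, adjusted p = 0.646) did not pass the test. TBL16 averaged 5.48 ± 0.07 in bdg, 5.66 ± 0.26 in fdh, 5.56 ± 0.07 in lcr and 5.34 ± 0.21 in WT, and its 3 lcr arrays (5.49, 5.62 and 5.56) lay just above the highest WT array (5.48). TBL41 averaged 5.07 ± 0.55 in bdg, 5.00 ± 0.25 in fdh, 5.54 ± 0.35 in lcr and 5.15 ± 0.15 in WT, and TBL45 averaged 7.99 ± 0.28 in bdg, 7.68 ± 0.65 in fdh, 7.87 ± 0.16 in lcr and 8.08 ± 0.38 in WT. Both overlapped WT in each mutant. These 4 genes and TBL19 were described after their values had been seen.

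The GH9 enzymes measured on every array were the secreted GH9B7 and GH9B8 and the class C enzyme GH9C2. GH9B8 read 6.48, 6.49 and 6.72 in bdg, 6.45, 6.18 and 6.85 in fdh and 6.75, 6.86 and 7.50 in lcr, against 7.24, 6.73 and 7.68 in WT. Only bdg lay below WT on all arrays, and its highest array (6.72) almost reached the lowest WT array (6.73). The log2 difference was -0.65 in bdg (-1.28 to -0.02), -0.72 in fdh (-1.35 to -0.09) and -0.18 in lcr (-0.81 to 0.46), with an adjusted p of 0.260 in fdh. None of these differences passed the adjusted test.

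GH9C2 read 8.74, 9.21 and 9.93 in bdg, 9.04, 8.94 and 9.93 in fdh and 8.61, 9.09 and 10.31 in lcr, against 9.63, 8.93 and 10.58 in WT. All genotypes overlapped, and replicate 3 was the highest array of each. GH9C2 averaged 9.29 ± 0.60 in bdg, 9.31 ± 0.54 in fdh, 9.33 ± 0.88 in lcr and 9.71 ± 0.82 in WT, and GH9B7 averaged 9.62 ± 0.33 in bdg, 9.40 ± 0.12 in fdh, 9.84 ± 0.26 in lcr and 9.45 ± 0.21 in WT (SD, n = 3 each). For GH9B7 the intervals of the difference lay within 1 log2 unit of 0 in all 3 mutants (-0.25 to 0.60 in bdg, -0.47 to 0.38 in fdh and -0.03 to 0.82 in lcr), so that a doubling or halving lay outside them. For GH9C2 they ran from -1.69 to 0.89 over the 3 mutants. The class C gene GH9C3 was between 2.24 and 2.31 on all arrays except WT replicate 2 (2.84). GH9B5 and GH9B12, at an unadjusted p under 0.05 in lcr and chosen after their values were seen, had differences of 0.49 and 0.24 there on arrays that were all under 4.56.

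**Figure D3:**
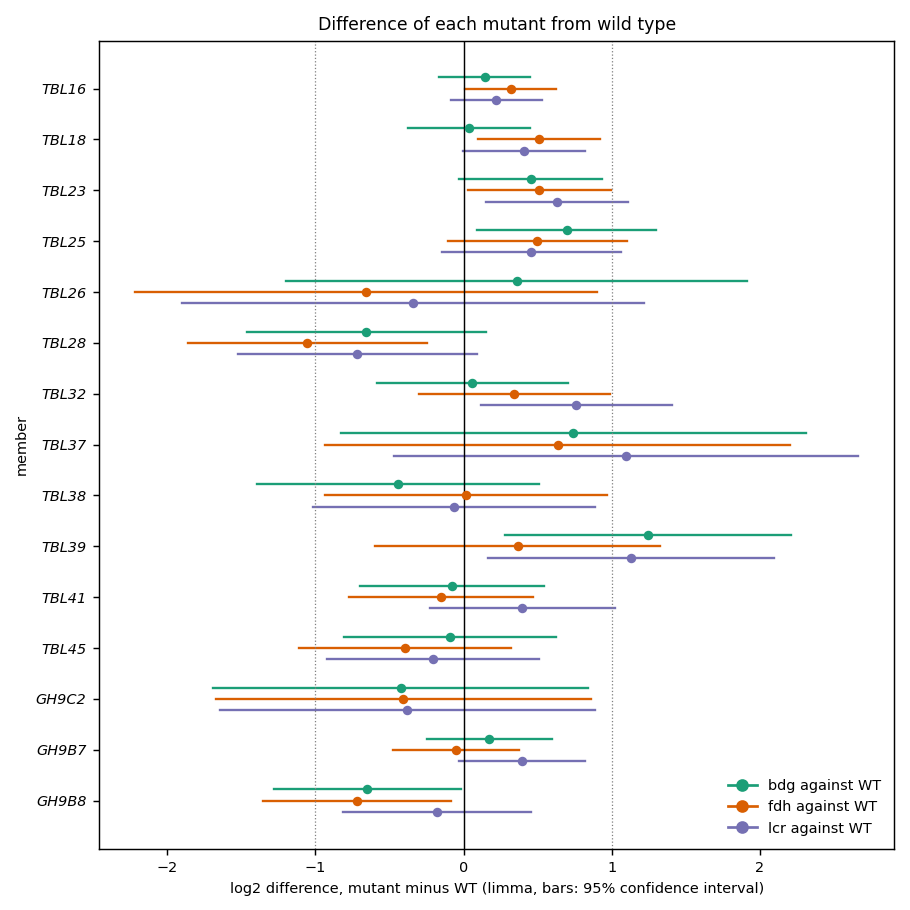
Log2 difference of each mutant from WT for the 15 members at or above the lowest array median on every array, with bdg, fdh and lcr from top to bottom within each gene. Points are limma estimates, bars are 95% confidence intervals not adjusted for the number of genes, and dotted lines mark a doubling and a halving. TBL39 stands furthest to the right in bdg (1.25) and lcr (1.13), TBL28 lies left of 0 in each mutant, and most intervals include 0.

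Over the 15 clearly measured members, the interval of the difference lay within 1 log2 unit of 0 for 7 genes in bdg, 7 in fdh and 5 in lcr. The median differences were 0.06 in bdg, 0.02 in fdh and 0.39 in lcr, against -0.01, -0.04 and 0.01 over the 10009 probe sets measured on every array. Arrays of the mutant and WT did not overlap for 5 of the 15 in bdg (33.3%, against 6.54% of the 10009), for 3 in fdh (20%, against 24.6%) and for 5 in lcr (33.3%, against 12%). In bdg these were TBL23, TBL25 and TBL39 above WT and TBL28 and GH9B8 below it. In fdh they were TBL18 and TBL25 above and TBL28 below, and in lcr TBL16, TBL18, TBL23, TBL32 and TBL39, all above. The share in fdh was near the background, and those in bdg and lcr were above it, on 5 genes each.

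No member passed the test when the mutants were compared directly with each other. Limma called no member for fdh against bdg, fdh against lcr or lcr against bdg, where 0.761%, 0.0879% and 0.0044% of all probe sets passed. At an unadjusted p under 0.05 there were 1, 3 and 1 members (2.7%, 8.11% and 2.7%, against 12.9%, 7.84% and 3.1% of all probe sets). TBL18 differed by 0.47 between fdh and bdg (0.06 to 0.88, adjusted p = 0.303), GH9B7 by -0.44 between fdh and lcr (-0.87 to -0.02, adjusted p = 0.610), and TBL32 by 0.70 between lcr and bdg (0.06 to 1.35, adjusted p = 0.9999). For TBL39, which stood above WT on all arrays of bdg and lcr, fdh differed from bdg by -0.88 (-1.84 to 0.08, adjusted p = 0.45) and from lcr by -0.77 (-1.73 to 0.20, adjusted p = 0.81). A difference of TBL39 between fdh and the other mutants was therefore not shown.

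Some of the widest shifts within genotypes followed the replicate number. Replicate 3 was the highest of the 3 arrays in all 4 genotypes for GH9C2, TBL25 and GH9B8, and the lowest in all 4 for TBL37 and TBL38. Replicate 3 was thus at an extreme in all 4 genotypes for 5 of the 15 members (33.3%), as it was for 22.9% of the 10009 probe sets measured on every array. Over the same 10009, replicate 1 was the highest in all 4 genotypes for 1.34% and the lowest for 0.899%. For replicate 2 these shares were 0.619% and 1.38%, so the replicate 3 shift was not particular to these members. Relative to the mean of replicates 1 and 2, replicate 3 of GH9C2 differed by 0.95 in bdg, 0.94 in fdh, 1.46 in lcr and 1.29 in WT. For TBL37 the same difference was -1.88 in bdg, -0.46 in fdh, -1.53 in lcr and -1.79 in WT. TBL26 was shifted by 1.52 in fdh, 1.37 in lcr and 1.91 in WT, but by -0.35 in bdg. The samples were harvested in 3 rounds with each genotype in each round, but the labels do not tie the replicate number to a round, and whether the harvest had a part in these shifts was not tested.

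**Figure D4:**
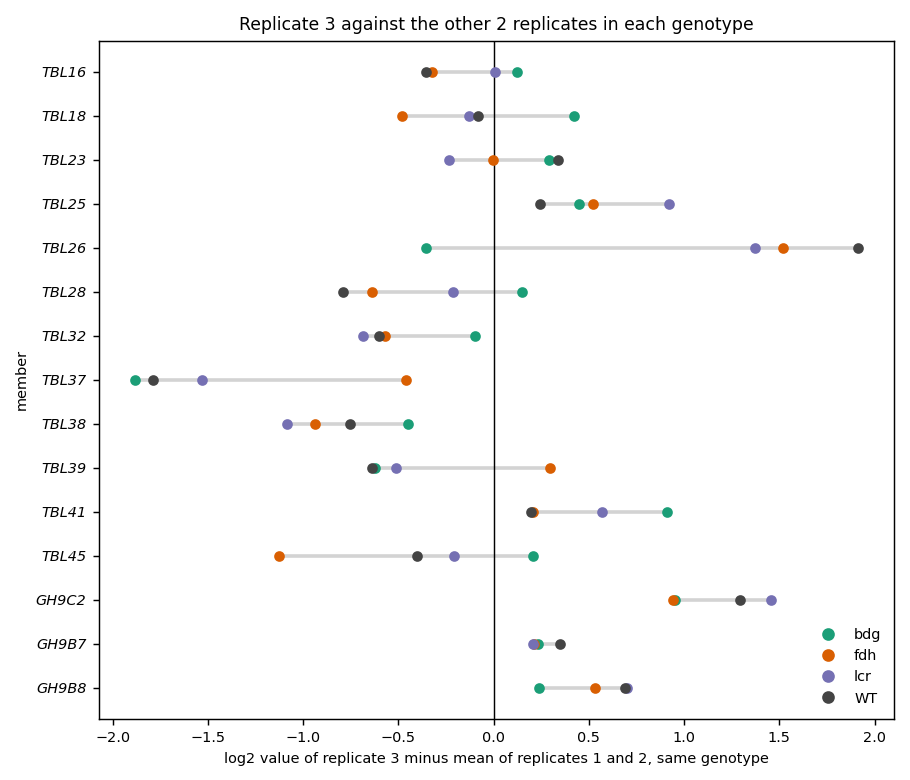
Log2 value of replicate 3 minus the mean of replicates 1 and 2 of the same genotype, for the 15 members at or above the lowest array median on every array (bdg, fdh, lcr and WT as points, grey bars spanning their range). All 4 points lie right of 0 for GH9C2 (0.94 to 1.46) and left of 0 for TBL37 (-1.88 to -0.46), and TBL26 has bdg at -0.35 apart from the other genotypes.

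With a term for replicate 3, added after the data had been seen, limma called GH9B8 in fdh (log2 difference of -0.72, adjusted p = 0.0361), TBL36 in fdh (adjusted p = 0.0445) and, for the mean of the mutants, TBL36 (0.0433) and TBL25 (0.55, adjusted p = 0.0463). In that setting 2 of the 37 members stood beside 1153 of all 22746 probe sets called in fdh. For the mean of the mutants, 2 members stood beside 393 probe sets. These counts do not set the families apart in fdh. Over all the settings tried, the adjusted p ranged from 0.0361 to 0.618 for GH9B8 in fdh, from 0.00148 to 0.281 for TBL36 in fdh, and from 0.0463 to 0.764 for TBL25 in the mean of the mutants.

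None of 10 probe sets of other wall genes passed limma in bdg, fdh or lcr. Over all probe sets 0.11%, 2.17% and 0.4% passed, so a count of 0 among 10 does not set these genes apart. The 10 were those with 1 gene in lists for xylan, cellulose, xyloglucan and mannan, and pectin synthesis. These lists named 20, 31, 23 and 32 symbols, which gave 2, 1, 6 and 1 probe sets. Of the 10, 2 were under 4.56 on every array. CSLC4 and COB were described after their values had been seen. CSLC4, a glucan synthase of the xyloglucan backbone, read 8.84, 9.45 and 9.15 in fdh and 8.49, 8.51 and 7.86 in WT, with a log2 difference of 0.86 (adjusted p = 0.123). COB, a membrane-anchored protein needed for oriented cellulose deposition, differed by 1.03 in fdh (adjusted p = 0.268). A list of partners of the acetyltransferases, the RWA transporters among them, held no probe set under the same rule.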

How the data were processed

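RNA from 12 leaf samples (3 each of bdg, fdh, lcr and WT) was hybridised to ATH1 arrays. The authors deposited log2 values per probe set, 1 value for each array, by GCRMA, whose version is not given in the sources used here. Replicates were not pooled, and no earlier step was repeated. The method draws probe sets near background to closely similar values. In all, 22746 probe sets were tested and 64 control probe sets left out, with no filter on low values. Genes were named through the platform annotation, in which 503 probe sets had several genes and were not named; 2 of these list a GH9 gene.

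The 4 genotypes were fitted in one model in limma 3.58.1 (R 4.3.3), with Benjamini-Hochberg adjustment over all probe sets, an adjusted p under 0.05 and no block for the replicate number. Rank Product was written anew from its description (9 ratios per mutant, 27 for all mutant arrays, 100 permutations, pfp under 0.05). Both were tested on data simulated for fdh against WT, with changes set in probe sets measured on every array. At a 2-fold change limma found 29% of 100 probe sets and Rank Product 4%, so most such changes were missed. At a 4-fold change they found 66% and 89% of 100. Intervals are 95% and not adjusted. No read depth exists for arrays, and precision is limited by their number. Alternatives were a filter (log2 above 5 on at least 3 arrays), another quantile normalization, a variance trend, a replicate block, 2-group models, a pfp under 0.01 and leaving out arrays, among them WT replicate 2 and bdg replicate 1, for which the study describes slightly disturbed ratios of 3′ to 5′ signal. Members were described individually if a test called them, if their role is known, or if, within their family, they had one of the 3 largest differences in a mutant and a genotype mean of at least 4.56. The members and lists were chosen with earlier results of these data known.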

Additional observations from a re-analysis of the deposited data

How the results depend on the processing

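Among 2453 values of 18 members under the alternatives, 2416 kept their call or moved by less than the spread between replicates, 12 moved by more, 12 passed the threshold newly, 13 lost it, and no called value changed sign. Of the values not called, 148 changed sign. Of 120 median differences of a family under the alternatives, 23 changed sign. The count of members called for the mean of the mutants in limma, 1, was 0 with the filter on low values, where TBL36 is left out by construction, 0 with the replicate block, 0 without replicate 3 of every genotype, 2 with a term for replicate 3, and 0 to 1 when each array was left out. In fdh the count, 0, was 1 with the block (GH9B8), 1 with a variance trend (TBL36), 1 without WT replicate 2 and bdg replicate 1 together, 2 with the replicate 3 term, and 0 to 1 with each array left out. In bdg, in lcr and for any difference among the genotypes it was 1 without those 2 arrays together and 0 to 1 with each array left out. The Rank Product count over the 9 mutant arrays, 1, was 0 at a pfp under 0.01, 0 with the filter, and 0 to 2 with each array left out. The replicate 3 term and the omission of replicate 3 were chosen after seeing the data. Except where stated for the filter, the cause of these changes was not tested.

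The replicate numbers were not taken as pairing the samples, which would need a correlation over 0.1 in every pair. Over 18 pairs, deviations of same-numbered arrays correlated at -0.356 to 0.725 (median 0.322; 0.367 to 0.725 for replicate 3), and over 36 pairs those of differently numbered arrays at -0.555 to 0.740 (median -0.228), so that not every array correlated best with its own number. With the replicate block, limma called 34 probe sets in bdg, 847 in fdh, 152 in lcr, 336 for fdh against bdg, 11 for fdh against lcr, 259 for the mean of the mutants and 301 for any difference, against 25, 493, 91, 173, 20, 187 and 221 without it, and GH9B8 passed in fdh (adjusted p = 0.0470) while TBL36 did not in the mean of the mutants (0.0575).

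Counts over all probe sets also moved with other settings. In bdg, fdh and lcr they were 51, 669 and 166 with the filter, 1, 53 and 6 in 2-group models, 55, 1153 and 259 with the replicate 3 term, 0, 619 and 42 without replicate 3, and 15, 283 and 92 without WT replicate 2 and bdg replicate 1. A variance trend gave 39 in bdg. Leaving out each array gave 6 to 36, 121 to 854 and 19 to 93. Over all the settings, limma called 16 to 623 probe sets for fdh against bdg, 0 to 158 for fdh against lcr, 0 to 4 for lcr against bdg, 85 to 393 for the mean of the mutants and 42 to 566 for any difference. Rank Product called 125 in bdg, 429 in fdh, 258 in lcr and 772 over the 9 mutant arrays, against 66, 183, 114 and 516 at a pfp under 0.01 and 87, 279, 160 and 400 with the filter. The medians of the families, near 0 over all members, were 0.33 in fdh and 0.40 in lcr for TBL and -0.42, -0.41 and -0.18 in bdg, fdh and lcr for GH9 over the members that passed the filter.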

Other observations

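A locus outside the rule has a TBL name in RefSeq only. At2g31110, listed there under the synonym TBL40, has a pair of probe sets on the array. The brighter one read 4.76, 4.99 and 4.54 in bdg, 6.54, 6.25 and 4.85 in fdh and 4.66, 5.38 and 4.73 in lcr, against 5.21, 4.33 and 4.15 in WT. The difference in fdh was 1.32 (95% interval 0.30 to 2.33, limma adjusted p = 0.196). The other probe set read 5.27, 4.33 and 2.55 in fdh and 3.45, 2.47 and 2.49 in WT, with a difference of 1.24 (-0.06 to 2.55, adjusted p = 0.367). Both were highest in fdh replicate 1 and lowest within fdh in replicate 3, and neither passed the test. The locus was described after its values had been seen. The probe sets shared by GH9B14 and GH9B15 and by GH9B9 and GH9B10, which could not be assigned to 1 gene, averaged 2.83 to 2.88 and 3.35 to 3.58 in the 4 genotypes, under the lowest array median.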
